A study of Homo sapiens with 12 samples.

Results

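Of the 63677 Ensembl identifiers in the count files, 725 are autosomal protein-coding genes that span more than 300 kb of the genome and lie, at both ends, more than 5 Mb from either end of their chromosome. The rule uses positions of the GENCODE v44 annotation on GRCh38, which lists 742 such genes. Their spans ran from 300.1 to 2474 kb with a median of 444 kb, and 447 spanned 300 to 500 kb, 216 spanned 500 to 1000 kb and 62 spanned more. RNA-seq had been performed in MiaPaca2, an established human cell line of pancreatic ductal adenocarcinoma, labelled as WT, with 3 libraries in each of 4 groups. Con cells received DMSO, CPT cells received the Vitamin D analog calcipotriol at 1 µM, GTA+5-Aza cells received glyceryl triacetate at 2 mM with 5-Aza-2′-deoxycytidine at 1 µM, and CPT+GTA+5-Aza cells received all 3 agents, each for 24 h. Treatment with GTA and 5-Aza is called epigenetic priming below. GTA and 5-Aza were always given together, so their effects cannot be told apart, and the work rests on 1 cell line. The labels do not say whether the 3 libraries of a group came from separate cultures, so that p-values measure the spread between these libraries, which may be technical.

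A protein-coding gene of this size is almost entirely intron. RNA polymerase II has to travel the whole length of a transcript before it can be finished and polyadenylated. A transcript that covers a long gene is thus finished much later than a compact one, and its output depends on elongation over the whole distance. The span used here is that of the annotated gene with all its transcripts, and single transcripts can be shorter. Which of them were expressed was not looked at. Long genes are known for roles in cell adhesion, axon guidance, the cytoskeleton, signalling and synapses, and many of them are silent outside the nervous system. GTA is an acetate donor for histone acetylation, and 5-Aza is a cytidine analog that is built into DNA and traps DNA methyltransferases, so that methylation is lost as cells divide.

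Total counts ran from 16162490 to 21224665 per library. The epithelial markers KRT8 (1410 to 1740 CPM, with TMM-scaled library sizes) and KRT18 (644 to 854 CPM) and the mesenchymal markers VIM (5310 to 6590 CPM) and ZEB1 (46.2 to 65.9 CPM) were present in every library, whereas EPCAM and CDH1 reached at most 0.0528 and 0.245 CPM. Of the markers of fibroblasts, leukocytes and endothelium, LUM and PECAM1 were at 0 in all 12 libraries, DCN and PTPRC reached at most 0.0972 and 0.214 CPM, and COL1A1 had group means of 0.135 CPM in Con and 1.7 CPM in GTA+5-Aza. SOX9 (means of 167 and 218 CPM) and KRT7 (0.389 and 2.02 CPM) were also higher on average in GTA+5-Aza than in Con and VIM lower (6200 and 5440 CPM), and the part of such marker changes in the results below was not tested.

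Promoter sequences of the RefSeq table (250 bases before to 50 after the annotated start, GRCh38.p14) were found for 281 of the 338 long genes that had enough counts to be tested. 5-Aza lowers DNA methylation, which lies at CpG, so 4 of them are shown with each CpG in capitals. Whether these CpG are methylated in MiaPaca2 was not looked at. Each direction of change has an example of many and one of fewer CpG. Of the 4 sequences, 2 are from genes that fell with priming (CUX1, CDKAL1) and 2 from genes that rose (THSD4, BTBD9). They lie at chr7:101815757-101816056 (CUX1, plus strand), chr6:20534207-20534506 (CDKAL1, plus strand), chr15:71096644-71096943 (THSD4, plus strand) and chr6:38639880-38640179 (BTBD9, minus strand).
CUX1: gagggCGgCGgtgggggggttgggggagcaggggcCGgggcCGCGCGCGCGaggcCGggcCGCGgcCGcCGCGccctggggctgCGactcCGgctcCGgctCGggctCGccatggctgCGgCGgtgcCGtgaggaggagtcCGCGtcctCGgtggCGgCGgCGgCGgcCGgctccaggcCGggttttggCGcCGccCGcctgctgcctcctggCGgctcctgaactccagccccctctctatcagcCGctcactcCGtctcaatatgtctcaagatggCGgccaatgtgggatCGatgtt
CDKAL1: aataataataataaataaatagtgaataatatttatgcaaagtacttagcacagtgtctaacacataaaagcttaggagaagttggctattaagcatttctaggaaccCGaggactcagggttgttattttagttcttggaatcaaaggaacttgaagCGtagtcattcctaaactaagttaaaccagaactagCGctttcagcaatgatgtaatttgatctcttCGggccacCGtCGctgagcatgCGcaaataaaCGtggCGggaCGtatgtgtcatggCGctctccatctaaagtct
THSD4: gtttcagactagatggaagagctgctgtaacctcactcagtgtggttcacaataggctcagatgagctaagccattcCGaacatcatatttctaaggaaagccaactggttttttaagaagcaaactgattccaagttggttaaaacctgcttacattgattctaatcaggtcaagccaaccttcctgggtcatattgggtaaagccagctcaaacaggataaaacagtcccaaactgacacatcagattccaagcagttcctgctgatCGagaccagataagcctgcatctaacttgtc
BTBD9: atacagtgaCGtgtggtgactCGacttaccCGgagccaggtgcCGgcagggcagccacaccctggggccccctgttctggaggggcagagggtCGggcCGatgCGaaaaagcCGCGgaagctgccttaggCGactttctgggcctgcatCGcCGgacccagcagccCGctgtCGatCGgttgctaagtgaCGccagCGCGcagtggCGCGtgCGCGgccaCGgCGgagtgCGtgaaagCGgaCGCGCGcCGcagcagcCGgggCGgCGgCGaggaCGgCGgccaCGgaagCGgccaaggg

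These 300-base windows hold 39 CpG in CUX1, 11 in CDKAL1, 2 in THSD4 and 38 in BTBD9, and those of DOCK1 and ROR1, 2 further genes that fell, hold 42 and 29. Of the 281 windows of tested long genes, 80.8% hold 10 or more CpG, against 88.9% for tested genes of up to 300 kb and 56.0% of all 27305 promoters in the table. Among the long genes that fell with priming (GTA+5-Aza against Con) the share was 84.7% of 59 windows, and among those that rose it was 9 of 12 windows. In CPT+GTA+5-Aza against CPT, 86.9% of 61 windows of lower genes and 53.8% of 13 windows of higher genes held 10 or more. The letters TATAAA, searched on both strands, occur in 18 of the 281 windows (6.41%) and in 3264 of the 27305 promoters in the table, and in none of the 4 windows shown. SEMA3A, AGAP1, CADM2, PDE4D and VPS13B are named without a window.

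Of the 725 long genes, 338 (46.6%) passed edgeR's filter on low counts, which 64.9% of all autosomal protein-coding genes did. Of the other 387, 190 had no count in any library, and 197 had some, with at most 20 counts in a library, so nothing can be said of their response at this depth. The tested long genes are spread over all 22 autosomes, with 35 on chromosome 2 and 2 each on chromosomes 19 and 22 at the extremes. They had a median span of 429 kb against 32.4 kb for all tested autosomal protein-coding genes, a median exonic length of 11.2 against 5.38 kb, and exons made up a median of 2.25% of the span against 17.2%. Their exons were less GC-rich (median 43.3% against 48.5%) and their median expression was lower (11.2 against 29.6 CPM). In 79 of them 5% or more of the exonic bases are shared with another gene, and since the strand setting of the counting is not given in the sources used here, reads from such overlaps cannot be assigned with certainty.

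Per kilobase of exon, the most abundant long gene was ATG10, an enzyme of autophagosome formation, at a mean of 86.8 RPKM over the 12 libraries. It was followed by SND1, a nuclease-domain RNA-binding protein (44.9 RPKM), the adherens junction protein CTNNA1 (40.1 RPKM), the secreted guidance cue SEMA3A (40.0 RPKM) and the membrane-actin linker RDX (30.6 RPKM). ATG10 shares 6.87% of its exonic bases with another gene, and with the strand setting unknown its level, rank and change may include reads of that gene. ATG10 and RDX gave log2 fold changes of -0.01 and -0.05 in GTA+5-Aza against Con, with edgeR adjusted p-values of 0.934 and 0.692. SND1 had 304, 314 and 324 CPM in Con and 287, 250 and 269 CPM in GTA+5-Aza, so its 3 primed libraries lay below the 3 control libraries, and its log2 fold change was -0.22 (SE 0.06, edgeR adjusted p = 0.00604).

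Priming lowered more long genes than it raised. In GTA+5-Aza against Con, 68 of the 338 tested long genes (20.1%) were lower at an adjusted p under 0.05, where 7.53% of all 17123 genes tested were lower, and 17 (5.03%) were higher, where 9.95% of all genes were. Adjusted p-values throughout come from the quasi-likelihood test of edgeR, adjusted after Benjamini and Hochberg across the 17123 genes. The median log2 fold change of the tested long genes was -0.17, against 0.01 over all genes tested, and 220 of the 338 had a negative value (65.1% against 49.1%). By the study's own definition of differentially expressed genes (DEGs), which asks for more than 1.5-fold and P under 0.05 before adjustment, 26 long genes were lower (7.69%, background 1.62%) and 14 were higher (4.14%, background 6.82%), so most of the decreases were smaller than 1.5-fold. When edgeR's glmTreat asked for evidence beyond 1.5-fold, 2 long genes were lower, AGAP1 and CADM2 (0.592%, background 0.0759%), and 0 were higher (background 1.19%). The number of higher genes depended on single libraries: 9 were left without Con replicate 1, 11 without Con replicate 2, and 10 without Con replicate 3 or without GTA+5-Aza replicate 1.

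**Figure D1:**
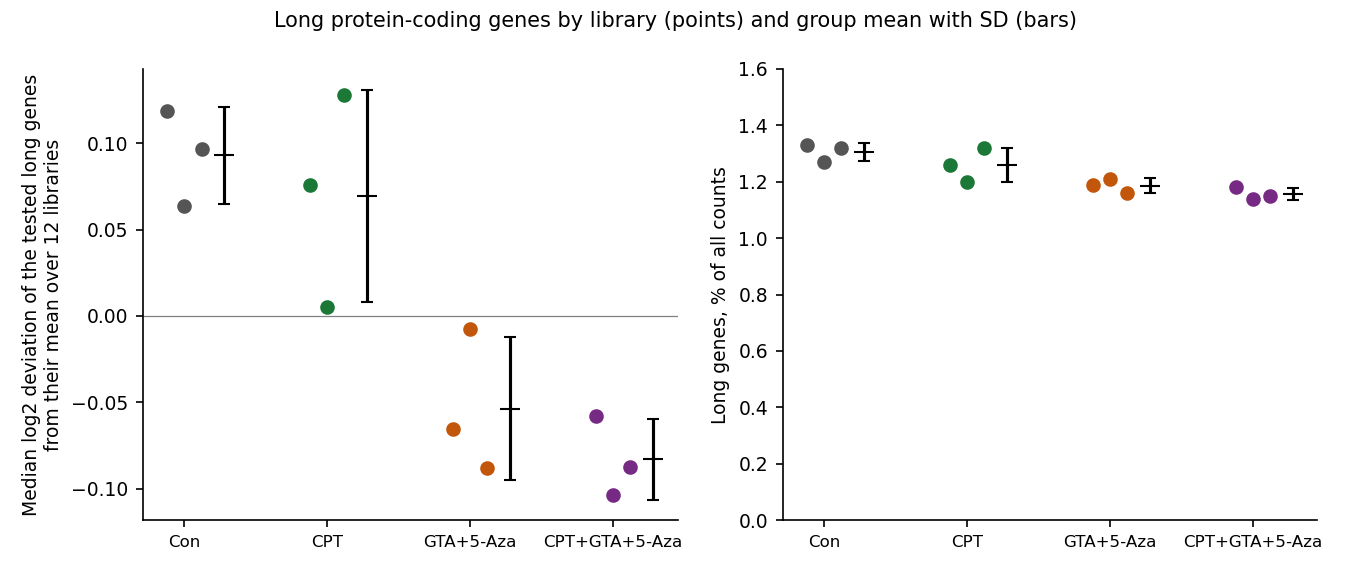
The left panel plots, for each of the 12 libraries, the median log2 deviation of the 338 tested long genes from their mean over all libraries, and the right panel plots the share of all counts on the 725 long genes in percent. Points are libraries and bars are group means with SD (n = 3), and the 6 primed libraries lie below 0 in the left panel, with GTA+5-Aza replicate 2 (-0.01) and CPT replicate 2 (0.01) nearest to it.

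The Con and GTA+5-Aza libraries were separated in the median over the long genes. The median log2 deviation of the tested long genes from their own mean was 0.12, 0.06 and 0.10 in the Con libraries and -0.07, -0.01 and -0.09 in the GTA+5-Aza libraries, without overlap. In CPT it was 0.08, 0.01 and 0.13, and in CPT+GTA+5-Aza -0.06, -0.10 and -0.09. The second CPT library and the second GTA+5-Aza library lay closest to 0, and the gap between them was smaller than the pooled SD of libraries within groups (0.0413). All 725 long genes together took 1.31% ± 0.03 (SD, n = 3) of the counts in Con, 1.26% ± 0.06 in CPT, 1.19% ± 0.03 in GTA+5-Aza and 1.16% ± 0.02 in CPT+GTA+5-Aza. Short genes moved with the libraries too. The 816 genes of up to 30 kb with GC-poor exons (up to 42%) had median deviations of 0.07, -0.02 and 0.05 in Con and of -0.03, 0.03 and -0.11 in GTA+5-Aza, whereas the 4735 genes of up to 30 kb as a whole had -0.06, -0.01 and -0.04 in Con and 0.03, 0.01 and 0.05 in GTA+5-Aza. The part of GC content in the shift of the long genes was looked at only through the classes and the correction given below.

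**Figure D2:**
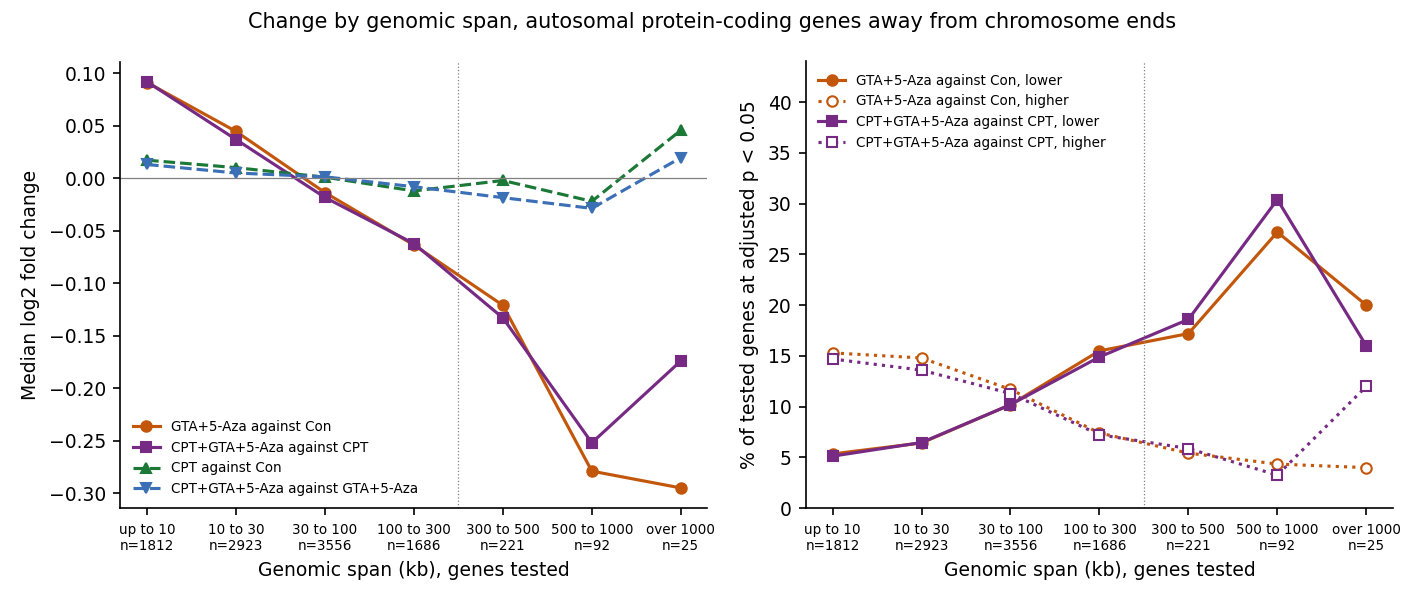
Genes are grouped by genomic span in kb (number tested under each class), for autosomal protein-coding genes away from chromosome ends. The left panel plots the median log2 fold change of 4 comparisons and the right panel plots the percentage of tested genes higher (open symbols) or lower (filled symbols) at an adjusted p under 0.05, and the dotted vertical line marks 300 kb. In both priming comparisons the median goes from 0.09 in the shortest class to below -0.12 beyond 300 kb, while the CPT comparisons stay between -0.03 and 0.05.

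The median change with priming was lower in long than in short genes. Without CPT, the median of the log2 fold changes was 0.09 for genes of up to 10 kb, 0.04 for 10 to 30 kb, -0.01 for 30 to 100 kb and -0.06 for 100 to 300 kb. Among the long genes it was -0.12 for 300 to 500 kb (221 genes), -0.28 for 500 to 1000 kb (92 genes) and -0.30 beyond 1000 kb (25 genes). The share of genes that fell was 5.35% in the shortest class, 17.2% and 27.2% in the first 2 classes of long genes, and 5 of 25 beyond 1000 kb, where expression was lowest (median log2 CPM 1.32). The same medians for CPT+GTA+5-Aza against CPT were -0.13, -0.25 and -0.17 in the 3 classes of long genes. The median was thus not lowest beyond 1000 kb with CPT, nor without CPT among genes with a mean log2 CPM above 3, where it was -0.29 at 500 to 1000 kb and -0.21 beyond (8 genes). On either side of the 300-kb limit, the 5 tested genes just above it, COBL, NOS1AP, SIPA1L3, KIF16B and KMT2C, had log2 fold changes of -0.20 to 0.15, and the 5 just below it, ZDHHC14, CHCHD3, BAZ2B, WDFY3 and KIAA1549L, had -0.27 to 0.26.

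Span was not the only property that went with the change. Across the 338 tested long genes, the Spearman correlation with log2 fold change was -0.18 for span and -0.20 for expression level, and with CPT -0.12 and -0.16. Among the 181 long genes whose log2 CPM averaged above 3, a limit chosen after the data were seen, it was -0.34 for span, against 0.04 for exonic length, 0.13 for exon GC and 0.03 for expression level. Among the 7575 genes of up to 300 kb above the same level, it was -0.22 for span, 0.41 for exon GC and -0.28 for level. These are correlations across genes of the same libraries, which are not independent replicates. Within classes of exon GC, the long genes had the lower median in every class: -0.22 against -0.08 for genes of up to 100 kb where GC was up to 42%, -0.17 against -0.04 at 42 to 46%, -0.08 against 0.00 at 46 to 52%, and -0.18 against 0.17 above 52%, where 24 long genes were tested. When the trend of each library with exon GC was removed, 63 long genes were lower (18.6%, background 9.34%) and 20 higher (5.92%, background 9.62%), of which 61 and 15 were also called without the correction, and the median was -0.12.

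**Figure D3:**
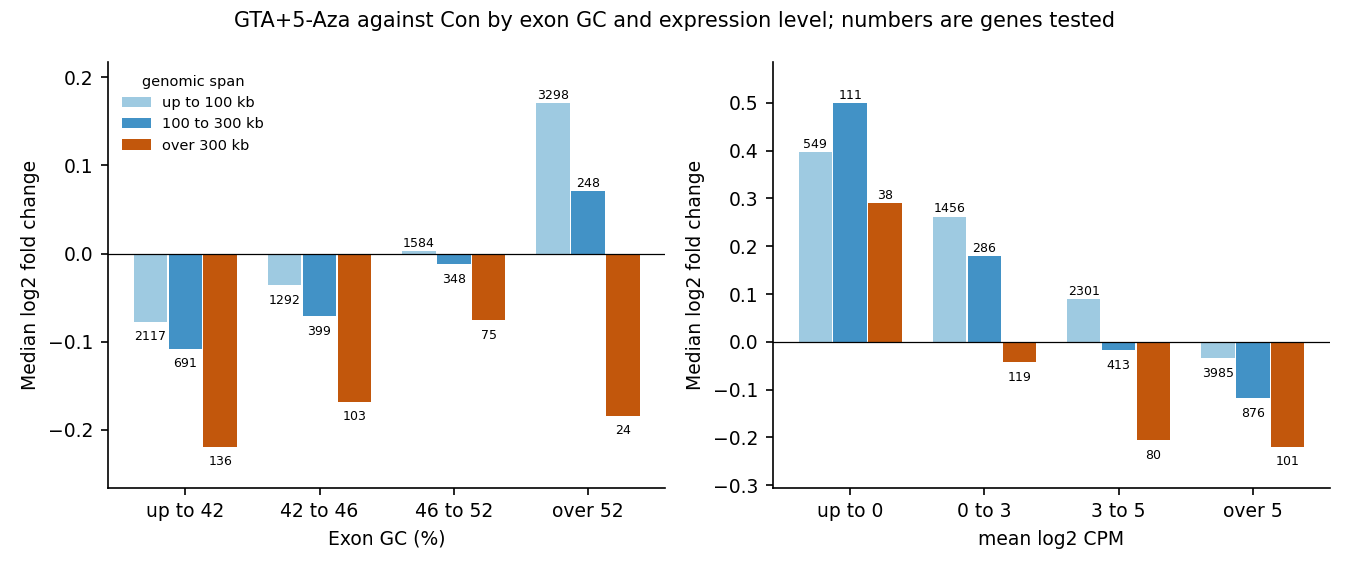
Bars give the median log2 fold change with priming (GTA+5-Aza, Con as reference) by exon GC in percent (left) and by mean log2 CPM over the 12 libraries (right), for genes of up to 100 kb, of 100 to 300 kb and over 300 kb, with the number of genes tested at each bar. The bars of genes over 300 kb are the lowest in all 8 classes, and they lie above 0 in the class of lowest expression (0.29, 38 genes).

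The share of long genes called lower went with their expression level. A change is more easily called at high counts, so these shares do not measure the size of the decrease. The median log2 fold change of the long genes was -0.04 at a mean log2 CPM of 0 to 3, -0.21 at 3 to 5 and -0.22 above 5. Of the long genes with a mean log2 CPM above 5, 42 of 101 (41.6%) were lower in GTA+5-Aza against Con, against 14.3% of the 3985 genes of up to 100 kb at that level. Between 3 and 5 the count was 20 of 80 (against 3.0%), between 0 and 3 it was 5 of 119 (4.2% against 0.755%), and up to 0 it was 1 of 38. The long genes with the least RNA, up to 0, had a positive median of 0.29, as did genes of up to 100 kb there (0.40). In CPT+GTA+5-Aza against CPT these medians were 0.02 and 0.435, so that of the long genes was near 0 with CPT.

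**Figure D4:**
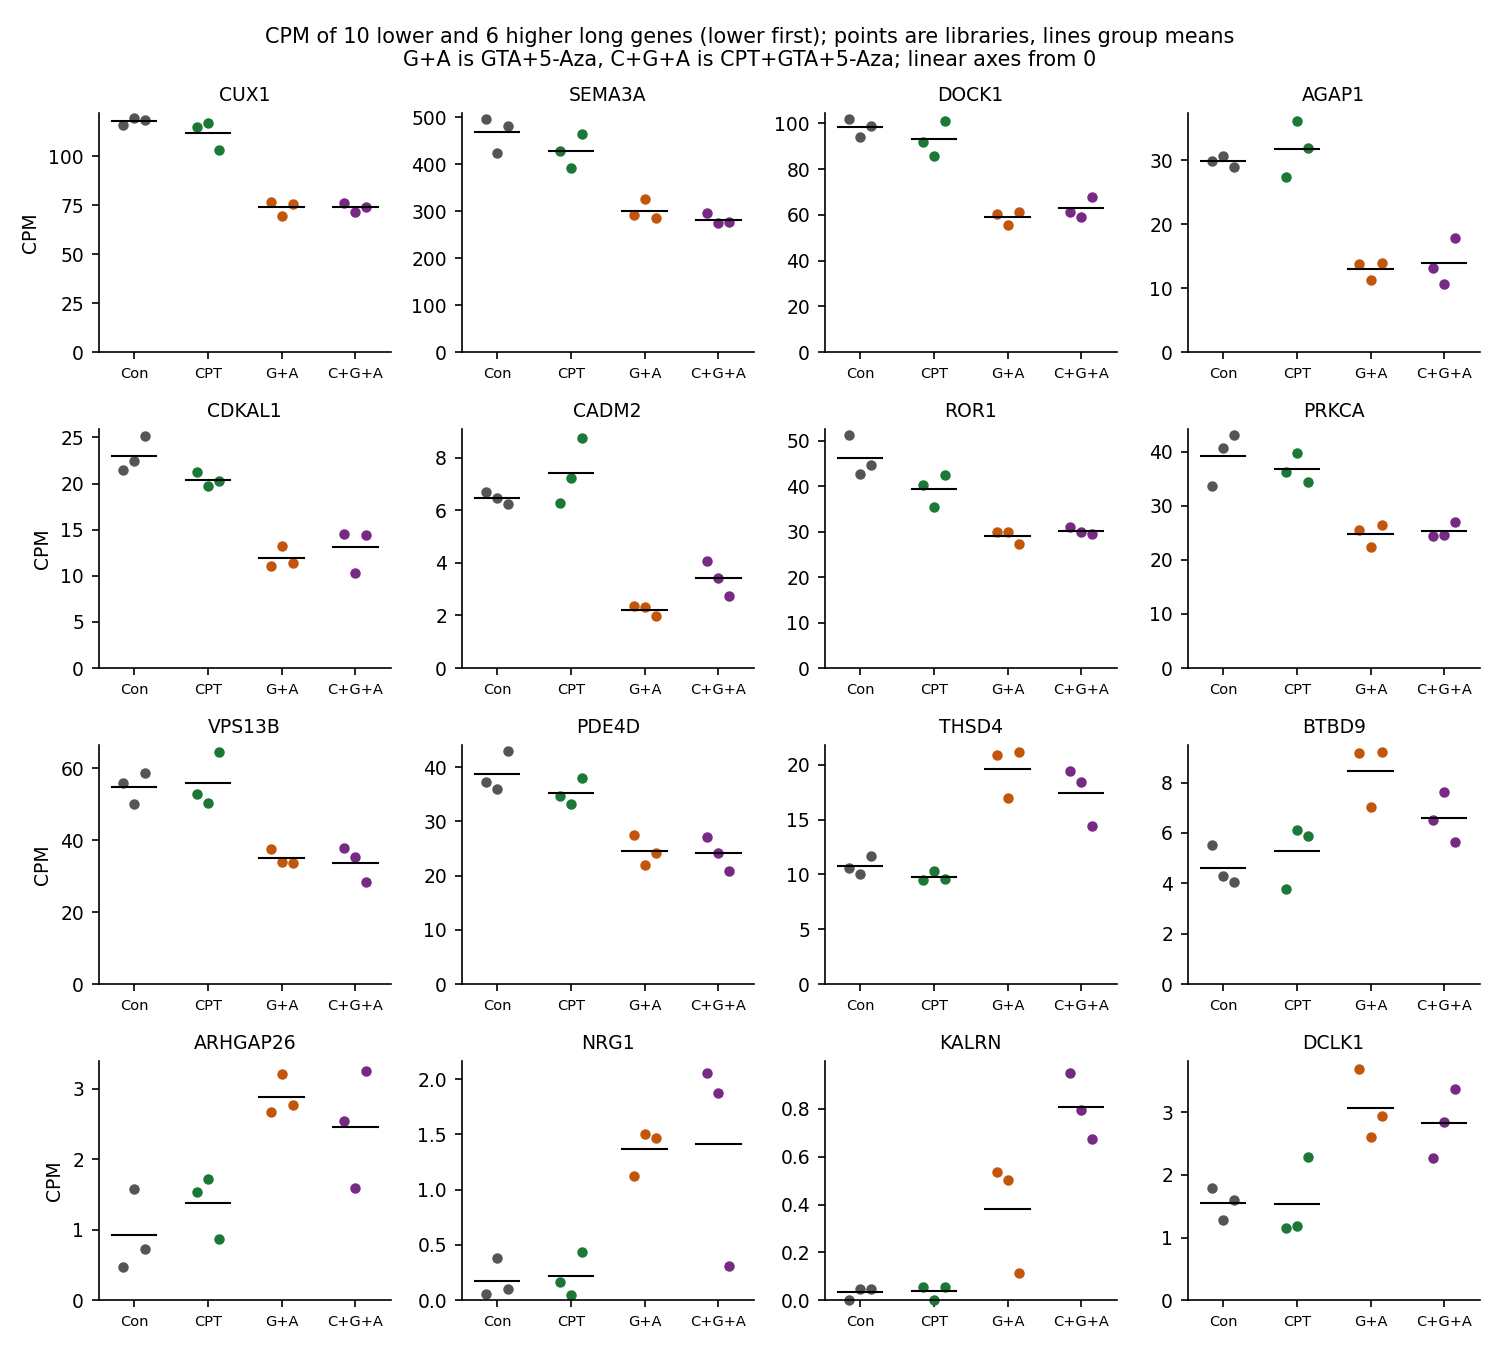
Each panel plots CPM on a linear axis from 0 for 1 gene, with the 3 libraries of each group as points and the group mean as a line, first the 10 lower and then the 6 higher long genes named for GTA+5-Aza against Con. In the 10 lower genes the libraries of GTA+5-Aza lie below all Con libraries, and those of CPT+GTA+5-Aza below all CPT libraries.

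SEMA3A, a secreted semaphorin that repels growing axons and acts on neuropilin receptors (chr7:83955777-84492724, minus strand), had 498, 425 and 483 CPM in Con, 429, 392 and 465 CPM in CPT, 292, 326 and 286 CPM in GTA+5-Aza, and 295, 275 and 276 CPM in CPT+GTA+5-Aza. All 6 primed libraries were below all 6 unprimed ones, and the log2 fold change was -0.64 (SE 0.07, edgeR adjusted p = 2.23e-07) in GTA+5-Aza against Con. ROR1, a receptor for Wnt5a of the receptor tyrosine kinase family, had 51.3, 42.8 and 44.7 CPM in Con and 29.97, 29.9 and 27.2 CPM in GTA+5-Aza. Its groups did not overlap and the log2 fold change was -0.67 (SE 0.10, edgeR adjusted p = 2.75e-05). CADM2, a homophilic adhesion molecule of neurons, spans 1115 kb and went from 6.68, 6.48 and 6.22 CPM in Con to 2.35, 2.30 and 1.98 CPM in GTA+5-Aza. This was a log2 fold change of -1.54 (SE 0.22, edgeR adjusted p = 1.94e-05), the largest decrease among the 10 named lower genes. PCDH15, a protocadherin of the hair cell tip link and with 1825 kb the second longest of the tested long genes, had 43.9, 46.9 and 44.4 CPM in Con and 29.9, 34.6 and 36.9 CPM in GTA+5-Aza, again without overlap (log2 fold change -0.42, SE 0.10, edgeR adjusted p = 0.00439).

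DOCK1, an activator of the GTPase Rac in migration and engulfment of cells (chr10:126905409-127452517, plus strand), had 102, 93.9 and 99.0 CPM in Con, 91.9, 85.7 and 101 CPM in CPT, 60.3, 55.7 and 61.3 CPM in GTA+5-Aza, and 61.2, 59.3 and 67.9 CPM in CPT+GTA+5-Aza. Primed and unprimed libraries did not overlap, and the log2 fold change was -0.74 (SE 0.08, edgeR adjusted p = 3.19e-07) in GTA+5-Aza against Con. AGAP1, an activator of Arf GTPase hydrolysis that acts with the adaptor complex AP-3, had 29.9, 30.7 and 29.0 CPM in Con and 13.7, 11.3 and 13.9 CPM in GTA+5-Aza. The log2 fold change was -1.20 (SE 0.15, edgeR adjusted p = 1.73e-06), and the gene shares no exonic base with another gene. PRKCA, the classical protein kinase C alpha, had 33.7, 40.7 and 43.1 CPM in Con and 25.4, 22.3 and 26.4 CPM in GTA+5-Aza. PDE4D, a phosphodiesterase that degrades cyclic AMP and spans 1553 kb, had 37.3, 36.0 and 42.9 CPM in Con and 27.5, 21.9 and 24.1 CPM in GTA+5-Aza. Neither gene had overlapping groups, and their log2 fold changes were -0.67 (SE 0.11, edgeR adjusted p = 9.30e-05) and -0.66 (SE 0.11, edgeR adjusted p = 0.000167).

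CUX1, a homeodomain transcription factor (chr7:101815904-102283958, plus strand), had the smallest p among the long genes that fell by more than 1.5-fold without overlap of libraries. It had 116, 120 and 118 CPM in Con, 115, 117 and 103 CPM in CPT, 76.9, 69.7 and 75.8 CPM in GTA+5-Aza, and 75.9, 71.7 and 74.2 CPM in CPT+GTA+5-Aza. The 6 primed libraries all lay below the unprimed ones, and the log2 fold change was -0.67 (SE 0.07, edgeR adjusted p = 1.93e-07). CDKAL1, an enzyme that modifies a lysine tRNA, had 21.5, 22.4 and 25.1 CPM in Con and 11.1, 13.3 and 11.4 CPM in GTA+5-Aza. VPS13B, a lipid transfer protein of the Golgi, had 55.9, 50.1 and 58.6 CPM in Con and 37.6, 33.9 and 33.6 CPM in GTA+5-Aza. Both fell without overlap of libraries, with log2 fold changes of -0.95 (SE 0.14, edgeR adjusted p = 1.80e-05) and -0.65 (SE 0.11, edgeR adjusted p = 0.000115). In all, 21 long genes (6.21%, background 0.835%) were lower at an adjusted p under 0.05 with a fold change above 1.5 and no overlap between groups.

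Of the 17 long genes that rose, 6 did so more than 1.5-fold without overlap of libraries (1.78% of those tested, background 4.95%). THSD4, a secreted protein of the fibrillin microfibrils (chr15:71096952-71783383, plus strand), had 10.6, 10.1 and 11.7 CPM in Con, 9.46, 10.3 and 9.61 CPM in CPT, 20.8, 16.9 and 21.2 CPM in GTA+5-Aza, and 19.4, 18.4 and 14.4 CPM in CPT+GTA+5-Aza. The primed libraries were higher in both settings, with a log2 fold change of 0.86 (SE 0.14, edgeR adjusted p = 8.43e-05) in GTA+5-Aza against Con. BTBD9, a BTB-domain protein, had 5.52, 4.29 and 4.04 CPM in Con and 9.19, 7.01 and 9.20 CPM in GTA+5-Aza, a log2 fold change of 0.88 (SE 0.21, edgeR adjusted p = 0.00431). ARHGAP26, a GTPase-activating protein, had 0.473, 1.57 and 0.729 CPM in Con and 2.67, 3.21 and 2.77 CPM in GTA+5-Aza, a log2 fold change of 1.62 (SE 0.42, edgeR adjusted p = 0.00702). In CPT+GTA+5-Aza against CPT neither was called, with log2 fold changes of 0.32 for BTBD9 and 0.82 for ARHGAP26 (edgeR adjusted p = 0.343 and 0.177).

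The calls of the other 3 of these genes depended on single libraries, and NRG1 and KALRN had at most 8 counts in a Con library. NRG1, a ligand of the ERBB receptors that spans 1216 kb, had 1, 8 and 2 counts in Con and 21, 30 and 26 counts in GTA+5-Aza, with an edgeR adjusted p of 0.00923 that became 0.0579 without Con replicate 1 and 0.0576 without Con replicate 3. KALRN, a guanine nucleotide exchange factor of neurons, had 0, 1 and 1 counts in Con and 10, 10 and 2 counts in GTA+5-Aza. Summed over libraries this was an 11.8-fold ratio with a 95% exact counting interval from 2.9 to 104-fold, and the edgeR adjusted p of 0.0274 rose above 0.05 without any 1 of the 3 Con libraries or of the first 2 GTA+5-Aza libraries (0.0689 to 0.127). With 2 counts over the Con and 2 over the CPT libraries, KALRN passed the filter on low counts only through the primed libraries. Its call and ratio thus rest on a gene selected by the groups where it is high. The Con counts of NRG1 would not have passed the filter either. DCLK1, a kinase that binds microtubules, had 1.79, 1.29 and 1.61 CPM in Con and 3.69, 2.60 and 2.94 CPM in GTA+5-Aza. Its adjusted p of 0.0441 was lost without any 1 of 7 libraries (0.0502 to 0.173), and with CPT it was not called (edgeR adjusted p = 0.0808). MACF1, a linker of microtubules and actin, rose by less but at a high level, from 420, 403 and 428 CPM in Con to 479, 486 and 489 CPM in GTA+5-Aza (log2 fold change 0.22, SE 0.05, edgeR adjusted p = 0.00303).

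Whether priming had a like effect in cells that also received CPT was asked with CPT+GTA+5-Aza against CPT, which shares no library with the first comparison. Here 73 long genes (21.6%) were lower, where 7.39% of all genes tested were, and 19 (5.62%) were higher, where 9.57% of all genes were. By the DEG thresholds, 23 were lower (6.8%, background 1.74%) and 18 were higher (5.33%, background 6.93%). The median log2 fold change was -0.16 against 0.01 over all genes, and 221 of the 338 were negative. Of the long genes lower in this comparison, 52 were also lower in GTA+5-Aza against Con, which is 76.5% of the 68 and 71.2% of the 73. Of those higher, 8 were shared, 47.1% of the 17 and 42.1% of the 19, and 0 genes were called in opposite directions. Across the 338 genes, the log2 fold changes of both comparisons had a Pearson correlation of 0.54 (Spearman 0.58), and 0.85 (Spearman 0.82) across the 181 with a mean log2 CPM above 3. The same overlap and correlations were not computed over all genes tested, so this likeness cannot be called particular to long genes. The number of lower genes was 48 without CPT replicate 1, 43 without CPT+GTA+5-Aza replicate 2 and 50 without CPT+GTA+5-Aza replicate 3, and that of higher genes was 9 without CPT replicate 1, 10 without CPT+GTA+5-Aza replicate 1 and 13 without its replicate 2.

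**Figure D5:**
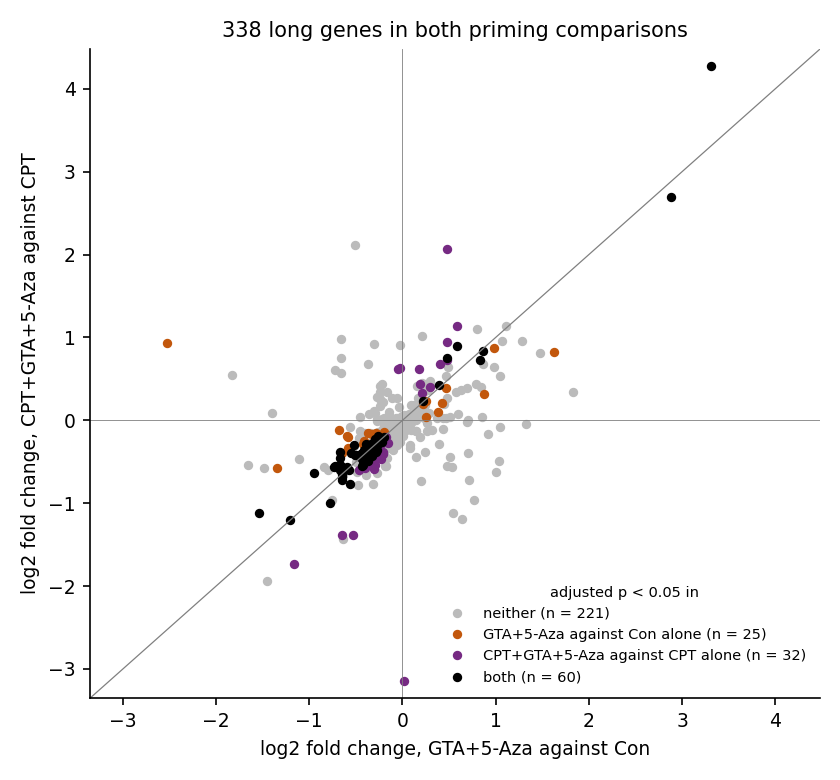
Each of the 338 tested long genes is a point, with the log2 fold change with priming on the horizontal axis (GTA+5-Aza over Con) and on the vertical axis (CPT+GTA+5-Aza over CPT), coloured by the comparison in which its adjusted p was under 0.05, and the diagonal marks equal changes. The 60 genes called in both comparisons lie at the lower left and upper right of the origin.

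TNS3, a focal adhesion protein that links integrins to actin, had the smallest p among the long genes in this comparison. It had 368, 407 and 398 CPM in CPT and 256, 259 and 257 CPM in CPT+GTA+5-Aza, next to 413, 418 and 416 CPM in Con and 268, 279 and 289 CPM in GTA+5-Aza. The primed libraries lay far below the unprimed ones in both settings, with log2 fold changes of -0.60 (SE 0.05, edgeR adjusted p = 1.21e-08) with CPT and -0.58 (SE 0.05, edgeR adjusted p = 2.91e-08) without. SEMA3A, CUX1 and AGAP1 fell here too, by log2 fold changes of -0.60, -0.60 and -1.20. FSTL5, a secreted follistatin-like protein, had 42.01, 40.5 and 44.1 CPM in CPT and 24.8, 22.6 and 26.9 CPM in CPT+GTA+5-Aza, without overlap (log2 fold change -0.77, SE 0.11, edgeR adjusted p = 9.42e-06), and shares 11.6% of its exonic bases with another gene. DOCK1 fell by 0.57 on the log2 scale (edgeR adjusted p = 1.19e-05).

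Among the long genes that rose in CPT+GTA+5-Aza against CPT, CNIH3, an auxiliary subunit of AMPA receptors, went from 19.9, 17.6 and 22.5 CPM to 34.6, 35.9 and 29.9 CPM (log2 fold change 0.75, SE 0.13, edgeR adjusted p = 0.000136). DLC1, a GTPase-activating protein with a tumor suppressor role in liver, went from 8.96, 6.79 and 10.2 CPM to 15.5, 17.5 and 15.1 CPM (log2 fold change 0.90, SE 0.16, edgeR adjusted p = 0.000289). Both were above their controls in every library, and both were also higher in GTA+5-Aza against Con, by 0.48 and 0.58 on the log2 scale (edgeR adjusted p = 0.00747 and 0.0115). These 2 calls were lost without GTA+5-Aza replicate 1 (0.0529) or 3 (0.0594) for CNIH3 and without Con replicate 1 (0.0908) or 3 (0.054) for DLC1. THSD4 rose by 0.83 (SE 0.14, edgeR adjusted p = 0.000152). KALRN went from 2 counts over the CPT libraries to 43 over the CPT+GTA+5-Aza libraries, a 23.1-fold ratio with a 95% exact counting interval from 6.02 to 197-fold. The limit from the filter given above for KALRN holds here too. KAZN, a desmosome-associated protein with 24.9% of its exonic bases shared with another gene, went from 13.8, 12.6 and 11.95 CPM to 17.3, 21.2 and 20.9 CPM (log2 fold change 0.63, SE 0.13, edgeR adjusted p = 0.00161). In GTA+5-Aza against Con its log2 fold change was -0.03 (edgeR adjusted p = 0.92), and the difference between the comparisons is given with the interaction below.

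By function, the long genes were grouped in lists, which hold 177 of the 338 tested and leave 161 in none. The counts below are for GTA+5-Aza against Con unless CPT is named. Each list is a part of the long genes, so the nearer shares are those of all tested long genes, 20.1% lower and 5.03% higher. Over all genes tested, 7.53% were lower and 9.95% higher. With CPT the shares were 21.6% and 5.62% of the long genes and 7.39% and 9.57% of all genes. Whether a list differs from the other long genes was not tested. In vesicle traffic, autophagy and protein turnover, 10 of 27 tested long genes were lower and 0 higher (12 and 0 with CPT), with a median log2 fold change of -0.34. They included EXOC4 of the exocyst, which tethers vesicles at the plasma membrane, with 77.9, 74.8 and 85.2 CPM in Con and 57.8, 60.5 and 63.6 CPM in GTA+5-Aza. NBEA, a scaffold of membrane traffic, went from 25.4, 24.2 and 24.9 to 14.1, 14.7 and 16.4 CPM, and the SNARE protein VTI1A from 38.8, 36.5 and 34.4 to 26.2, 25.4 and 23.3 CPM. None of these groups overlapped, and the edgeR adjusted p-values were 0.00149, 0.000368 and 0.000349.

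Among proteins of the cytoskeleton and of cell polarity, beside TNS3, the dystrophin-related UTRN went from 123, 116 and 127 to 99.5, 107 and 95.7 CPM, and PARD3, a polarity protein, from 71.5, 74.2 and 70.1 to 54.9, 49.2 and 46.6 CPM. Both fell without overlap of libraries (edgeR adjusted p = 0.00621 and 4.30e-05). DST, a giant plakin, was lower at 662, 716 and 680 CPM than in Con at 855, 797 and 864 CPM (log2 fold change -0.29, SE 0.05, edgeR adjusted p = 0.000437).

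Of the second messenger and kinase signalling genes, 7 of 25 were lower and 2 higher (6 and 0 with CPT, median -0.20 without). INPP4B, a phosphoinositide phosphatase, went from 45.1, 35.5 and 46.2 to 27.8, 32.5 and 33.1 CPM and PRKAG2, a subunit of the kinase AMPK, from 153, 129 and 133 to 109, 116 and 92.7 CPM, both without overlap (edgeR adjusted p = 0.00552 and 0.00204). MAST4 was called lower on 13, 11 and 15 counts in Con and 5, 0 and 1 in GTA+5-Aza, a 6.05-fold ratio of the sums with a 95% exact counting interval from 2.54 to 17.5-fold. Its GTA+5-Aza counts would not have passed the filter on low counts, so its call and ratio rest on a gene selected by groups where it is high. AKAP13, an anchor of protein kinase A, rose from 46.3, 45.7 and 50.5 to 54.6, 58.1 and 56.8 CPM (edgeR adjusted p = 0.0284).

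Of the transcription factors, cofactors and chromatin regulators, 7 of 32 were lower and 1 higher (7 and 1 with CPT). Their median was -0.18 without CPT and -0.06 with it, where 14 of the 32 were positive. MSI2, an RNA-binding regulator of translation that also stands in the list of RNA-binding and splicing factors, went from 84.6, 79.3 and 89.6 to 61.8, 64.1 and 61.4 CPM (log2 fold change -0.44, SE 0.08, edgeR adjusted p = 0.000209). SUPT3H, a subunit of the SAGA coactivator, went from 9.68, 6.96 and 9.04 to 4.81, 5.51 and 4.57 CPM (log2 fold change -0.78, SE 0.20, edgeR adjusted p = 0.00581), and the demethylase-family protein JMJD1C and the histone methyltransferase KMT2C had adjusted p-values of 0.037 and 0.0472. HIVEP3, a zinc finger factor, was the higher gene, at 65.3, 63.1 and 64.5 CPM against 56.6, 50.7 and 54.9 CPM in Con (edgeR adjusted p = 0.0433). Of the RNA-binding and splicing factors, 2 of 5 were lower and 0 higher in each comparison, MSI2 and SND1.

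Of the adhesion and axon guidance genes, 20 of 64 had enough counts to be tested. Of these 3 were lower (CADM2, PCDH15, SEMA3A) and 1 higher (NRG1), the same 4 were called with CPT with TENM3 added to the lower ones, and the median was -0.45. With CPT, the call of PCDH15 was lost without CPT replicate 3 (edgeR adjusted p = 0.0942) or CPT+GTA+5-Aza replicate 2 (0.0769), and that of NRG1 without CPT replicate 1 (0.0625) or CPT+GTA+5-Aza replicate 1 (0.0853) or 2 (0.0712). Of the ion channels, pumps and transporters, 18 of 69 were tested, and 3 were lower, RYR2 and SLC39A11 among them, and 0 higher. SLC39A11, a zinc transporter, went from 9.31, 8.62 and 11.6 to 6.09, 5.61 and 7.17 CPM without overlap (edgeR adjusted p = 0.0241). With CPT, 4 were lower and 2 higher, CACNA1A and ITPR2. Of the 3 receptor kinases and phosphatases tested, ROR1 was lower in both comparisons.

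Extracellular matrix and secreted proteins were the list with a positive median (0.27 without CPT and 0.12 with), and 2 of 12 were higher (NRG1, THSD4) and 2 lower (FSTL5, LAMA2) in both comparisons. Genes at common fragile sites, which are prone to break under replication stress, had the lowest median (-0.56), with 10 of 28 tested, 3 lower (LPP, NBEA, PDE4D) and 0 higher, and with CPT 4 lower and 0 higher (median -0.54). LPP, a zyxin-family adhesion protein, went from 119, 102 and 120 to 85.0, 77.6 and 86.2 CPM (log2 fold change -0.46, SE 0.08, edgeR adjusted p = 0.000206). No list was tested as a set.

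Among the 5 longest genes tested, PCDH15 and PDE4D fell as given above. EYS, the longest at 1987 kb and a protein of photoreceptors, had 29, 11 and 30 counts in Con and 12, 29 and 23 in GTA+5-Aza. MAGI2, a scaffold of cell junctions, had 22, 24 and 56 counts in Con and 80, 41 and 49 in GTA+5-Aza, and RBMS3, an RNA-binding protein, had 120, 76 and 162 against 88, 69 and 94. The groups of all 3 genes overlapped, and their edgeR adjusted p-values were 0.97, 0.12 and 0.286.

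Neither in CPT against Con nor in primed cells (CPT+GTA+5-Aza against GTA+5-Aza) was a long gene called: 0 of the 338 long genes had an adjusted p under 0.05 by edgeR's quasi-likelihood test, as was the case for all genes tested (0.0%), and DESeq2 called 0 of them too. An unadjusted P under 0.05 was reached by 20 (5.92%, background 4.28%) and 25 (7.4%, background 2.71%). By the DEG thresholds, 2 were higher and 4 lower in CPT against Con (0.592% and 1.18%, backgrounds 0.689% and 1.14%), and 3 were higher and 7 lower in primed cells (0.888% and 2.07%, backgrounds 0.345% and 0.66%). The median log2 fold changes were 0.00 and -0.02.

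DPH6, an enzyme of diphthamide synthesis on elongation factor 2, had the smallest p in CPT against Con. It had 42.8, 48.0 and 48.6 CPM in Con and 32.8, 30.8 and 39.8 CPM in CPT, and 49.3, 57.6 and 53.9 CPM in GTA+5-Aza against 46.3, 42.7 and 41.2 CPM in CPT+GTA+5-Aza. The CPT libraries lay below their controls in both settings, with log2 fold changes of -0.43 (SE 0.10, unadjusted P = 0.000207, edgeR adjusted p = 0.59) and -0.30 (SE 0.10, unadjusted P = 0.00515). With no filter on low counts, its adjusted p in CPT against Con was 0.0454. MCC, a negative regulator of the cell cycle, had 14, 8 and 21 counts in Con and 47, 31 and 39 in CPT, and MAML2, a coactivator of Notch, had 13.7, 12.6 and 11.6 CPM in Con and 8.08, 6.25 and 11.5 CPM in CPT, with edgeR adjusted p-values of 0.961 and 0.998. In primed cells the smallest p belonged to LAMA2, the laminin alpha 2 chain. It had 39.3, 35.9 and 36.6 CPM in GTA+5-Aza and 29.4, 29.6 and 26.2 CPM in CPT+GTA+5-Aza, which did not overlap, and 45.5, 47.6 and 51.8 CPM in Con against 37.9, 37.3 and 44.7 CPM in CPT. Its log2 fold changes with CPT were -0.39 in primed and -0.27 in unprimed cells (unadjusted P = 0.000523 and 0.0084, edgeR adjusted p = 1.0 in both). TANC2, a synaptic scaffold protein, and PSD3, an exchange factor for ARF6, followed with log2 fold changes of -0.25 each in primed cells (unadjusted P = 0.00102 and 0.00205, edgeR adjusted p = 1.0 in both).

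Whether the effect of priming differed between cells with and without CPT was tested by the interaction. No long gene was called after adjustment (0 of 338, background 0.0%, and 0 by DESeq2), 13 had an unadjusted P under 0.05 (3.85%, background 2.63%), and by the DEG thresholds 6 were higher and 4 lower (1.78% and 1.18%, backgrounds 0.934% and 0.841%). The smallest p was that of KAZN, at 16.5, 13.6 and 14.5 CPM in Con, 13.8, 12.6 and 11.95 CPM in CPT, 12.7, 15.6 and 15.4 CPM in GTA+5-Aza, and 17.3, 21.2 and 20.9 CPM in CPT+GTA+5-Aza. Only the last group stood apart, and the interaction was 0.66 on the log2 scale (SE 0.19, unadjusted P = 0.00185, edgeR adjusted p = 1.0). MAST4 (interaction 3.46, unadjusted P = 0.00562) and FHOD3, a formin of actin filaments (-1.66, unadjusted P = 0.00909), followed, both with an edgeR adjusted p of 1.0, the former on 0 to 15 counts per library. The limit from the filter on low counts given above for MAST4 holds here too. The interaction of DOCK1 was 0.17 (SE 0.11, unadjusted P = 0.143), and that of CUX1 was 0.08 (SE 0.10, unadjusted P = 0.452), with edgeR adjusted p-values of 1.0. The median over the tested long genes was -0.01.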

How the data were processed

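RNA-seq libraries of 12 MiaPaca2 samples were deposited by the authors as raw read counts per Ensembl gene, made per the labels and methods with Trim Galore, HISAT2 2.2.1 against GRCh38, and HTSeq. The annotation release and strand setting are not given in the sources used here. Of 63677 identifiers, 11496 are not in GENCODE v44, which held 99.047% of the counts, and 0 rows named no gene.

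The counts of all 4 groups were fitted together with edgeR 4.0.16 (R 4.3.3), with filterByExpr, TMM scaling and the quasi-likelihood test (common dispersion 0.0101, prior df 18.3), which left 17123 genes. CPM used TMM-scaled library sizes, and RPKM the union of GENCODE exons. A call is an adjusted p under 0.05. Total counts of 16162490 to 21224665 limit precision for weakly expressed genes, and exact 95% intervals of count ratios cover counting error only. These intervals do not allow for the filter on low counts, which a gene can pass through its highest group.

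The long genes and the function lists were chosen with earlier results of these data known. Genes are named by rule: the 10 lower and 10 higher genes with the smallest p in GTA+5-Aza against Con, with over 1.5-fold change and no overlap of libraries (6 higher met it), 5 in each direction in CPT+GTA+5-Aza against CPT, 3 each in the CPT comparisons and the interaction, and the 5 most abundant and the 5 longest, with DOCK1, which the study names. Members of the lists are further examples, picked after their values were seen. The test was checked on simulated data with known changes between GTA+5-Aza and Con. It called 54.6% of 97 genes changed 1.5-fold and 71.1% of 97 genes changed 2-fold, with 8 calls on unchanged genes. The lack of a call, as in the CPT comparisons and the interaction, thus does not show that a gene was unchanged. Replicates differed beyond sampling noise. Alternatives were DESeq2 1.42.0, other scalings, filters, spans, distances from chromosome ends, a correction for exon GC, and leaving out each library. A function list and a gene are not reported here.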

Additional observations from a re-analysis of the deposited data

How the results depend on the processing

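The median of the tested long genes stayed negative in both priming comparisons under every alternative for which it was computed, which leaves out DESeq2 and glmTreat, and more of them were lower than higher in each except glmTreat with CPT, where both shares were 0.296%. In GTA+5-Aza against Con, the share higher, the share lower and the median were 2.62%, 11.4% and -0.0566 with no filter on low counts, which adds 197 weakly expressed long genes. With CPT these values were 2.99%, 13.3% and -0.0466. Without the filter 0.187% were called in CPT against Con. With the GC trend removed the medians were -0.121 and -0.114. Against 1.5-fold (glmTreat), 0.0% were higher and 0.592% lower without CPT. With only the groups of the comparison fitted, 3.73% were higher with CPT. The medians were -0.115 and -0.109 for spans over 200 kb, and -0.28 and -0.231 over 500 kb, where that of the interaction was 0.0453. Among genes with a mean log2 CPM above 3, chosen after seeing the data, 34.3% and 36.5% were lower and the median without CPT was -0.218. The cause of these differences was not tested, apart from the filter's effect on the number of genes. DESeq2 called 5.33% higher and 22.8% lower without CPT, and 6.51% and 24.3% with it. Shares over all genes tested are given only for the main fit and, without CPT, for the GC correction and glmTreat. For the other fits, here and in the next paragraph, and for genes with a mean log2 CPM above 3, no such background is given. Whether the excess of lower long genes over all genes holds there was thus not looked at.

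Leaving out 1 library at a time gave 2.59 to 5.16% higher, 13.8 to 23.2% lower and medians of -0.211 to -0.148 in GTA+5-Aza against Con, while with CPT they were 2.57 to 6.02%, 12.3 to 25.5% and -0.201 to -0.133. The medians ranged from -0.0453 to 0.0285 in CPT against Con, from -0.0563 to -0.00175 in CPT+GTA+5-Aza against GTA+5-Aza, and from -0.0558 to 0.0311 for the interaction. Libraries of the same replicate number had correlations of -0.524 to 0.564, without 1 common sign. The second libraries of Con and CPT deviated together (0.564), and that of GTA+5-Aza went the other way from both (-0.432 and -0.524). What these libraries share was not tested. With a replicate block 4.73% were higher and 19.5% lower without CPT, and 4.73% and 21.0% with it.

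Of the 1464 values for named genes under an alternative, 1379 kept direction and call, 63 lost the call, 6 gained it and 16 changed sign, all in genes without a call there. Without CPT these were KAZN at 0.011 and ATG10 at 0.0302 with library size alone, and ATG10 at 0.0354, RDX at 0.0279 and EYS at 0.0572 with the GC trend removed. With single libraries left out the ranges were -0.0907 to 0.0595 for KAZN, -0.0631 to 0.0177 for ATG10 and -0.396 to 0.24 for EYS, and with CPT -0.056 to 0.11 for RDX and -0.162 to 0.35 for MAGI2. Depth limits what can be said of the 387 long genes that were not tested.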

Other observations

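Protein-coding genes that lie wholly inside the span of a long gene were looked at for the same libraries. There were 18 tested genes of this kind in 16 long genes, with a median log2 fold change of 0.15 in GTA+5-Aza against Con, and 3 were higher and 0 lower by edgeR at an adjusted p under 0.05. Over all genes tested, 9.95% were higher and 7.53% lower. Among genes of up to 10 kb and of 10 to 30 kb, 15.3% and 14.8% were higher. Whether genes inside long genes differ from other genes of like span was not tested. VSIR, an immune checkpoint protein, lies in CDH23 and had a log2 fold change of 0.54 (edgeR adjusted p = 0.00456). FILIP1L lies in CMSS1 on the opposite strand and had a log2 fold change of 1.91 (edgeR adjusted p = 0.00874), while CMSS1 itself had -0.27 (edgeR adjusted p = 0.0256). CSTF2T, a retrogene of a cleavage stimulation factor subunit, lies in PRKG1 and had 0.28 (edgeR adjusted p = 0.0338). In CPT+GTA+5-Aza against CPT, 2 of the 18 were higher and 0 lower (9.57% and 7.39% of all genes tested), and the median was 0.00.

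Protein-coding genes over 300 kb that lie within 5 Mb of a chromosome end were left out of the 725. Of the 28 tested, 14 were lower and 0 higher in GTA+5-Aza against Con, with a median of -0.46, and with CPT 12 were lower and 0 higher, with a median of -0.40. These calls are by edgeR at an adjusted p under 0.05. Over all genes tested, 7.53% were lower and 9.95% higher without CPT, and 7.39% and 9.57% with it. Whether the long genes near the ends differ from those away from the ends was not tested. Long protein-coding genes on the X chromosome gave 2 higher and 2 lower of 10 tested, and 0 called with CPT. Of 174 tested lncRNA genes over 100 kb, 7.47% were higher and 2.87% lower without CPT, with a median of 0.01. Of the 2614 tested lncRNA genes of up to 100 kb, 4.25% were higher and 2.26% lower, with a median of 0.01.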
